A study of Canis lupus familiaris with 20 samples.

Results

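The response of canine macrophages to co-culture with mammary adenocarcinoma cells was compared with their response to other mammary tumour cells. The comparison used all 10 macrophage arrays of a series of 20 arrays, the other 10 being those of the cancer cells. Each macrophage array carried RNA of co-cultured macrophages in one dye and RNA of mono-cultured macrophages in the other. The measure was the log2 ratio of co-cultured to mono-cultured macrophages, averaged over the 2 arrays of a dye-swap pair, so that each co-culture gave 1 value. The values of CMT-W1 and CMT-W2, both adenocarcinoma lines, were set against those of CMT-U27, CMT-U309 and P114, from a simple carcinoma, a spindle-cell tumour and an anaplastic cancer, which makes 2 against 3 values. A positive difference means a higher ratio with the CMT-W lines.

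The macrophages came from CD64-sorted blood monocytes of healthy dogs. They were cultured for 72 h alone or with cancer cells that carried a red cell tracker, and the unstained cells were then sorted by flow cytometry. No growth factor was added, and the study describes the cells as partly differentiated monocytes. The cancer lines were long-established cultures of a tumour each, and how many macrophage mono-cultures were grown is not given in the sources used here. The sample labels name the arrays of a pair as replicates, but these hold the same RNAs, so the p-values measure the spread between co-cultures of different lines.

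Macrophages that enter a tumour meet signals from the cancer cells and can turn either towards inflammation or towards repair and growth. CCL2 is the chemokine that draws further monocytes to a tissue, and CD163 is the scavenger receptor for haemoglobin and haptoglobin that marks macrophages of the repair type. Chemokines of the CCL and CXCL families, matrix-degrading proteases and growth factors are the main products through which macrophages act on a tumour. CCL2 and CD163 are the genes by which the macrophages were followed here.

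Of the spots on a macrophage array, 54.5% to 74.7% were well above background in the co-culture channel and 56.3% to 71.0% in the mono-culture channel. Precision was limited by the number of arrays. Across the 26966 genes tested, the log2 ratios of CMT-W1 and CMT-W2 had a Pearson correlation of 0.82. Among CMT-U27, CMT-U309 and P114 the correlation was 0.74 to 0.79, between lines of different groups it was 0.52 to 0.70, and between the arrays of a dye-swap pair it was 0.86 to 0.93. Co-cultures of the same group were thus more alike than co-cultures of different groups. The points are genes of the same slides and are given as a description only. The arrays of CMT-W2 and CMT-U309 shared a slide, as did those of CMT-W1 and P114. CMT-U27 lay on a slide with no CMT-W macrophage array. Each of these slides had a scan of its own. Values within a slide are therefore given for CMT-W2 minus CMT-U309 and for CMT-W1 minus P114.

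Only 7 of 14 macrophage markers had a probe with a symbol, and CD68 and CSF1R were not among them. All 7 were well above background on all 10 mono-culture channels. Their summed level in the co-culture channel was 83240 and 82370 array units with CMT-W1 and CMT-W2, against 541900 with CMT-U27, 1038000 with CMT-U309 and 296700 with P114. In mono-culture it was 1454000 and 1197000 on the CMT-W arrays, against 982000, 903500 and 1098000 on the others. CCL2 made up 84.6% to 87.4% of the co-culture sum with CMT-U27, CMT-U309 and P114, and 29.0% and 40.0% with CMT-W1 and CMT-W2. Without CCL2 the sum over the other 6 markers was 59140 and 49460 with CMT-W1 and CMT-W2, against 68520, 159600 and 43240, so that the groups overlapped and P114 had the lowest sum. The lower sum of all 7 markers with the CMT-W lines therefore rested on CCL2. The ratios of the other 6 markers did separate the groups in their median. It was -5.49 and -5.46 with CMT-W1 and CMT-W2, against -3.59, -1.88 and -4.47 with CMT-U27, CMT-U309 and P114. In bulk samples fewer cells of a type and less RNA per cell cannot be told apart.

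RNA of cancer cell genes was present in the sorted macrophages of every co-culture. Cancer-specific genes of a line, at least 16-fold higher in that line alone than in mono-cultured macrophages, had a median log2 ratio of 3.75 with CMT-W1, 3.45 with CMT-W2, 4.71 with CMT-U27, 3.55 with CMT-U309 and 4.39 with P114. Between 94.9% and 99.6% of these genes were raised in a co-culture. Genes with a level in mono-cultured macrophages at least 16-fold above that in each of the 5 lines are called macrophage-specific and numbered 268 among the genes tested. Their median log2 ratio was -3.79 with CMT-W1, -3.31 with CMT-W2, -2.41 with CMT-U27, -1.67 with CMT-U309 and -3.83 with P114. The medians of both kinds of gene overlapped between the groups. The level or background mark in the mono-cultured cancer lines is therefore given for the named genes past the threshold. Its part in the results was not tested.

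**Figure D1:**
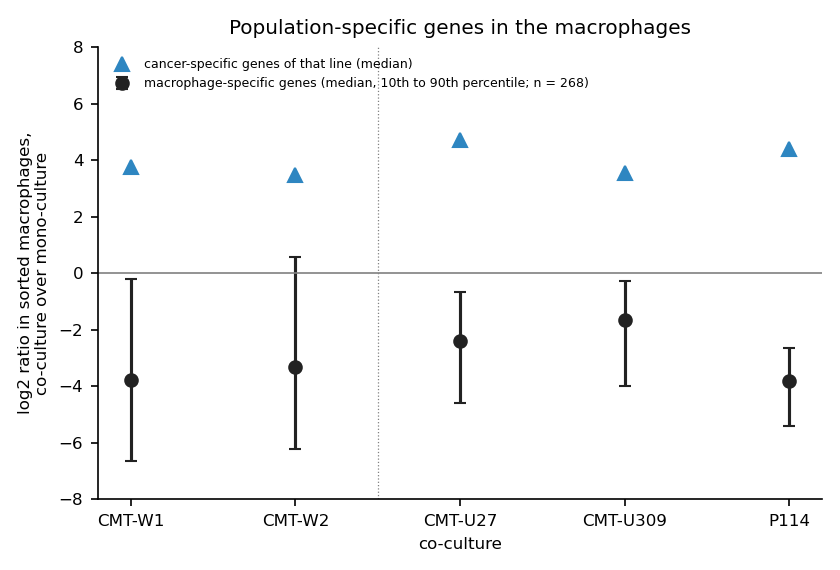
Median log2 ratio of co-cultured over mono-cultured macrophages (vertical axis) by co-culture (horizontal axis), for the cancer-specific genes of each line (triangles) and for the 268 macrophage-specific genes (circles, bars from the 10th to the 90th percentile). Cancer-specific genes were raised and macrophage-specific genes lowered with all 5 lines, and the medians of the groups on either side of the dotted line overlap.

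On the arrays CCL2 was lower in the macrophages of both adenocarcinoma co-cultures. Its log2 ratio was -5.03 with CMT-W1 and -4.32 with CMT-W2, against -0.03 with CMT-U27, 1.11 with CMT-U309 and -1.08 with P114. Both CMT-W values lay below all 3 others, and the values from the 2 dye orientations stayed on the same side, from -5.67 to -4.23 with CMT-W and from -1.26 to 1.14 with the others. The difference was -4.67 ± 0.67 (SE, 2 against 3 co-cultures, adjusted p = 0.0245 from limma). Within a slide it was -5.43 for CMT-W2 minus CMT-U309 and -3.94 for CMT-W1 minus P114. The mean over CMT-U27, CMT-U309 and P114 was 0.00 ± 1.10 (SD, n = 3). The study's real-time qPCR of CCL2 differed from these array values. There CCL2 fell in macrophages co-cultured with each line, most with CMT-U27, so that the groups overlapped.

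CD163 was lowered with every line and most with the CMT-W lines. Its log2 ratio was -8.61 with CMT-W1 and -8.03 with CMT-W2, against -4.09 with CMT-U27, -1.78 with CMT-U309 and -4.73 with P114. The groups did not overlap, and the difference was -4.79 ± 0.84 (SE, adjusted p = 0.0343 from limma). Its other probe gave -2.96. In mono-cultured CMT-W cancer cells CD163 passed the background mark on 0 of 4 arrays, and in the other lines on 4 of 6.

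The channels of the arrays were also compared on their own. The log2 level of CCL2 in the co-culture channel was 14.56 and 15.01 with CMT-W1 and CMT-W2 and 17.95 to 19.74 with the other lines. In the mono-culture channel it was 19.58 and 19.32 against 18.63 to 19.03, higher with CMT-W by 0.60. For CD163 the co-culture levels were 8.54 and 8.90 against 12.23 to 14.84, and the mono-culture levels were 17.15 and 16.94 against 16.62 to 16.96. The co-culture levels of both genes differed between the groups (adjusted p = 0.028 for CCL2 and 0.035 for CD163 from limma), and the mono-culture levels did not pass the threshold (0.813 and 0.847). The co-culture level is part of the ratio, so that its p is no separate evidence.

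**Figure D2:**
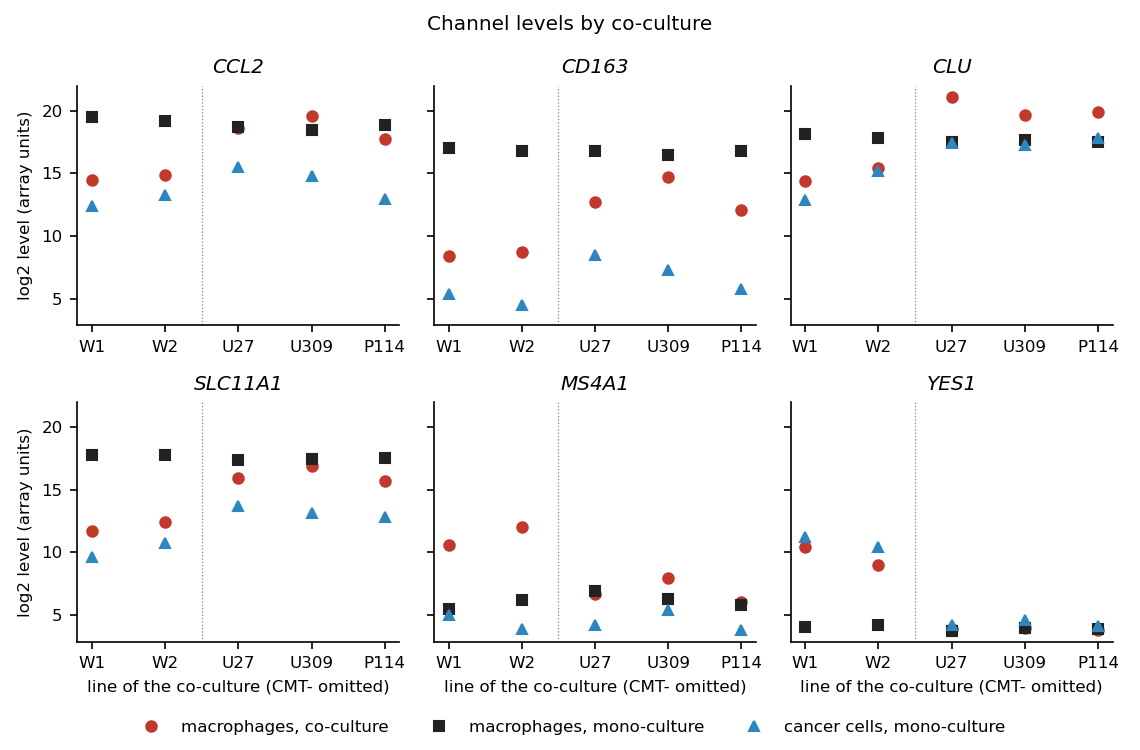
Log2 level in array units (vertical axis) of 6 genes by line (horizontal axis), in co-cultured macrophages (circles), mono-cultured macrophages (squares) and mono-cultured cancer cells (triangles), with the CMT-W lines left of the dotted line. For CCL2, CD163, CLU and SLC11A1 the co-culture levels with CMT-W1 and CMT-W2 lie below those with the other 3 lines, for MS4A1 and YES1 above them, and the mono-culture levels of the macrophages lie close together.

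Over all genes, 738 of 26966 (2.74%) differed between the groups at an adjusted p under 0.05 from limma, the threshold for a gene called here. With CMT-W1 and CMT-W2, 289 genes (1.07%) were higher and 449 (1.67%) were lower. The values of the groups did not overlap for any of the 738 genes, against 42.6% of all genes tested. Of the 289 genes called higher, 56 had passed the filter on dim probes, which asked for a probe well above background in at least 2 co-cultures, through the CMT-W co-cultures alone, and of the 449 called lower, 117 through the other co-cultures alone. Among all genes tested these were 132 and 824. A gene that passed in this way was chosen through its signal in 1 group alone, so that its p is no independent evidence. When a probe had to be well above background in 3 or in all 5 co-cultures, 880 and 915 genes were called. In the main fit 5886 genes had an unadjusted p under 0.05. Leaving out a CMT-W line leaves 1 value against 3, a weaker test that cannot show which line the calls rest on. Without CMT-W1 or without CMT-W2, 0 genes were called by limma, with 2910 and 6601 genes at an unadjusted p under 0.05, and without CMT-U309 the count was 1787. With normexp background correction and loess, with median centring, without a filter on dim probes or with the methods' t-test the count was also 0, with 3457 to 6900 genes at an unadjusted p under 0.05.

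Within the groups, 8125 genes (30.1%) had a mean ratio that differed from 0 with the CMT-W lines, 15.5% of those tested up and 14.6% down, and 12648 (46.9%) with the other lines, 19.9% up and 27% down. Of the genes called between the groups, 134 (0.497% of those tested) had negative ratios with both CMT-W lines and positive ones with all 3 others, and 136 (0.504%) went the reverse way. Without a call, these patterns held for 3.12% and 4.10% of genes. In the co-culture channel alone 656 genes (2.43%) were called between the groups, 256 higher (0.949%) and 400 lower (1.48%) with CMT-W. Without CMT-W1 or CMT-W2 this was 0%, without CMT-U27 3.70% and without CMT-U309 7.44%. Of the 738 genes, 542 were called there in the same direction, and all 738 had the same direction. The co-culture channel is part of the ratio by which these genes were called, so that this agreement is no separate evidence. In the mono-culture channel 0 genes were called by limma, with 1613 at an unadjusted p under 0.05, and without CMT-W2 0.423% of genes were called.

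Only 35 of the 738 genes had a symbol, 6 of them higher and 29 lower with CMT-W, among 821 tested genes with a symbol. Of the 29 lower genes, 13 had a negative mean ratio with CMT-W and a positive one with the others. The mono-cultured cancer lines differed in the same direction for many called genes. Of the 289 genes called higher, 233 (80.6%) were over 2-fold higher in mono-cultured CMT-W cells than in the other lines, against 25.1% of all genes tested. Of the 449 genes called lower, 361 (80.4%) were over 2-fold lower there, against 30.2%. Among the genes with a symbol these were 4 of 6 and 24 of 29. The 24 include PDPN, ACKR3, MMP9 and SLC11A1, with log2 differences between the cancer lines of -5.27, -3.47, -3.33 and -3.04. They also include CD163 (-2.25), CCL2 (-1.57) and KITLG (-1.43). Other named genes called lower were within 2-fold there, namely C5AR1 (-0.74), CTSK (-0.38), EDN1 (-0.36) and IL15 (0.39). Outside the macrophage-specific genes, to which C5AR1, CTSK and IL15 belong, 11887 genes were within 2-fold between the cancer lines. Of these, 41 (0.345%) were called higher and 72 (0.606%) lower, against 1.07% and 1.67% of all genes tested. The part of the cancer lines in the differences was not tested.

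**Figure D3:**
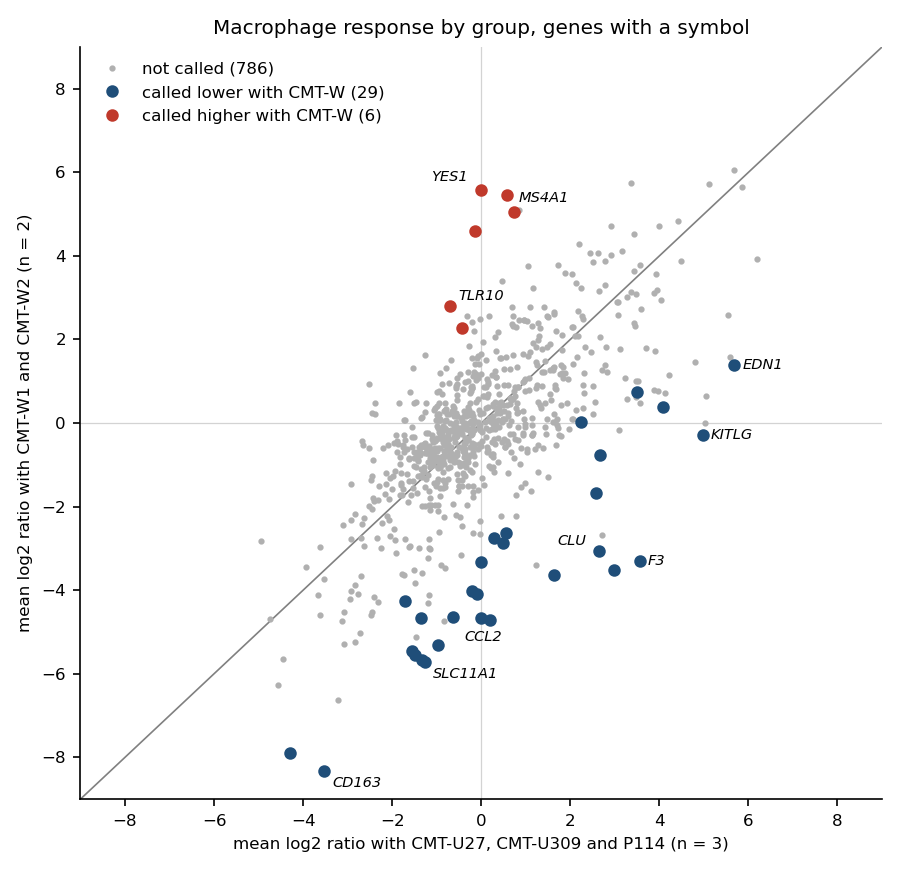
Mean log2 ratio with CMT-W1 and CMT-W2 (vertical axis, n = 2) against the mean with CMT-U27, CMT-U309 and P114 (horizontal axis, n = 3) for 821 genes with a symbol, with the line of equal response. The 29 genes called lower (blue) lie below the line and the 6 called higher (red) above it, among 786 genes not called (grey).

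The chemokine ligands made up the group with the lowest median difference among 21 gene lists. Of 13 ligands tested, 4 were called lower, 0 were called higher and 9 did not pass. Over all genes tested 1.67% were called lower and 1.07% higher. Their median difference was -3.34, against 0.13 over all genes tested. For 9 of the 13 the values with CMT-W lay below all others, against 17.9% of all genes tested. The called ligands were CCL2, CCL3, CCL4 and CCL8, which attract monocytes, T cells or both.

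CCL3, the macrophage inflammatory protein 1 alpha, had log2 ratios of -1.20 and -0.33 with CMT-W1 and CMT-W2, against 2.96, 3.37 and 1.65 with CMT-U27, CMT-U309 and P114. CCL4, its close relative, had -2.95 and -0.41 against 2.94, 3.33 and 1.43. CCL8, a monocyte attractant of the CCL2 group, had -4.93 and -4.37 against -0.52, 0.56 and -1.93. CCL3 and CCL4 thus had positive ratios with all 3 other lines and negative ones with both CMT-W lines, while CCL8 was lowest with the latter. The differences were -3.42 ± 0.62 (SE, adjusted p = 0.037 from limma) for CCL3, -4.25 ± 0.86 (0.0477) for CCL4 and -4.02 ± 0.72 (0.0366) for CCL8. Each passed the threshold.

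The largest difference of the list did not pass. CXCL8, the neutrophil attractant interleukin 8, had log2 ratios of -4.78 with CMT-W1 and -0.57 with CMT-W2, against 1.10, 2.86 and 4.18 with CMT-U27, CMT-U309 and P114. The CMT-W values differed from each other by more than 4 log2 units, and the difference of -5.39 ± 1.28 had an adjusted p of 0.0704 from limma. Its 3 other probes gave -5.57 to -5.25. The monocyte attractant CCL7 (-4.40), CCL20, which attracts immature dendritic cells (-3.34), and CCL13 (-1.69) and CCL17 (-1.41) also lay lower without overlap and did not pass. CXCL10, an interferon-induced attractant of T cells, had a mean ratio of 4.71 with CMT-W and 4.0 with the others. CCL5 had -0.46 and 0.48, CCL25 0.35 and 0.33, and CCL27 2.20 and 1.67. The low ratios of CCL2, CCL3, CCL4 and CCL8 were therefore not shared by each ligand.

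Of 8 chemokine and chemoattractant receptors tested, ACKR3 and C5AR1 were called lower, as were 1.67% of all genes tested. The other 6 did not pass, and the median difference of the 8 was 0.37. ACKR3, the scavenging receptor of CXCL12, had log2 ratios of -5.94 and -5.43 with the CMT-W lines and of -0.48, -1.54 and -2.0 with CMT-U27, CMT-U309 and P114. C5AR1, the receptor of the complement fragment C5a, had -8.27 and -7.51 against -4.29, -3.18 and -5.41. It was lowered with all 5 lines, as CD163 was. The differences were -4.34 ± 0.56 (SE, adjusted p = 0.0193 from limma) and -3.59 ± 0.68 (adjusted p = 0.041). CCR1, a receptor of CCL3 among others, had a mean ratio of -4.02 with CMT-W and of -2.92 with the others.

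Of 10 macrophage surface and scavenger markers tested, CD163, SLC11A1 and C5AR1 were called lower and the other 7 did not pass. Over all genes tested 1.67% were called lower. All 10 markers had a negative difference, with a median of -1.73 against 0.13 over all genes tested. SLC11A1, the metal transporter of the phagosome membrane, had log2 ratios of -6.06 and -5.37 with CMT-W1 and CMT-W2 and of -1.43, -0.57 and -1.78 with the others. Its difference of -4.45 ± 0.52 (SE, adjusted p = 0.0174 from limma) was -1.99 on its other probe. FCGR1A, which encodes CD64, the antigen used to sort the monocytes, had mean ratios of -5.29 and -3.09 and did not pass. TYROBP, the signalling adaptor of myeloid receptors, had mean ratios of -2.38 and -2.22, a difference of -0.17. The markers thus differed in how far they separated the groups.

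The same held for the macrophage-specific genes. Of the 268 genes, 23 (8.58%) were called lower and 5 (1.87%) higher, against 1.67% and 1.07% of all genes tested, and their median difference was -0.47. Of the 27 with a symbol, 4 were called lower and 0 higher. These were CD163, C5AR1, CTSK and IL15. The remaining macrophage-specific genes with a symbol included CD86, with mean ratios of -4.53 with CMT-W and -3.08 with the others, and CD80, with -1.27 and -2.46. P114, on the slide of CMT-W1, had a median over the 268 genes as low as that of CMT-W1 (-3.83 and -3.79). Of the 7 macrophage markers, CD163, C5AR1 and FCGR1A had ratios of -4.73, -5.41 and -4.22 with P114 against -8.61, -8.27 and -5.65 with CMT-W1. CD209, ADGRE1 and TYROBP had -5.14, -3.04 and -3.10 with P114 against -5.33, -3.04 and -2.37, and CCL2 had -1.08 against -5.03. Most markers were thus strongly lowered with P114 too.

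Among inflammatory cytokines and their receptors, IL15 and IL1RN were called lower, 0 were called higher and 15 of 17 did not pass. Over all genes tested 1.67% were called lower and 1.07% higher. IL15, which sustains natural killer and memory T cells, had log2 ratios of -5.03 and -4.32 against -1.83, -1.03 and -1.20. In the mono-cultured cancer lines IL15 was well above background on 0 of 4 CMT-W arrays and 1 of 6 other arrays. In the co-culture channel it was above background on 1 of 4 CMT-W arrays, which leaves the size of its ratios uncertain, and its difference was -1.11 with normexp and loess. IL1RN, the antagonist of the interleukin 1 receptor, had -3.03 and -2.71 against 1.67, 0.11 and -0.31. The differences were -3.33 ± 0.48 (SE, adjusted p = 0.0247) for IL15 and -3.36 ± 0.64 (adjusted p = 0.0407) for IL1RN. IL1RN was over 2-fold lower in the CMT-W cancer cells, by -5.18, while IL15 differed there by 0.39. IL6, IL1B, TNF and IL10 had differences of -1.89, -1.60, 0.15 and -0.46, and none of these 4 passed. CSF2, the granulocyte-macrophage colony-stimulating factor, had log2 ratios of 6.31 and 5.17 with CMT-W against 3.34, 2.98 and 3.76. It was thus higher without overlap, but did not pass (difference 2.38 ± 0.52, adjusted p = 0.0561), and its other probe gave -2.43.

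Among the other lower genes were the matrix-degrading proteases MMP9 and CTSK. MMP9, the gelatinase of macrophages and neutrophils, had log2 ratios of -4.10 and -3.92 with CMT-W1 and CMT-W2, against -0.84, 0.94 and -0.74 with the others. CTSK, the collagen-degrading cathepsin K, had -5.73 and -5.36 against -1.43, -0.15 and -2.90. Neither gene overlapped between the groups, and both passed with differences of -3.80 ± 0.62 and -4.06 ± 0.77 (SE). CTSS, cathepsin S, had a difference of -3.66 and did not pass (adjusted p = 0.0638 from limma). Of the lists of 7 proteases and inhibitors and of 10 lysosome and proteasome genes tested, MMP9 and CTSK were the called members. Over all genes tested 1.67% were called lower.

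F3, tissue factor, which starts coagulation, had the most negative difference of the called genes with a symbol. Its log2 ratio was -4.33 with CMT-W1 and -2.28 with CMT-W2, against 2.18, 2.64 and 5.86 with CMT-U27, CMT-U309 and P114. TMEM47, a transmembrane protein of cell junctions, had -4.82 and -2.20 against 4.27, 2.05 and 2.62. CLU, the secreted chaperone clusterin, had -3.74 and -2.40 against 3.58, 1.95 and 2.38. Each of the 3 genes was lowered with both CMT-W lines and raised with all other lines. The differences were -6.86 ± 1.13 (SE, adjusted p = 0.0301 from limma), -6.49 ± 0.91 (0.0235) and -5.70 ± 0.65 (0.0174). TMEM47 was well above background in the co-culture channel on 1 of 4 CMT-W arrays, so that the size of its ratios there is uncertain, and with normexp and loess its difference was -3.29. The 4 other probes of CLU gave -6.95 to -6.34, and the 3 of TMEM47 -5.93 to -2.94. In mono-cultured cancer cells F3, TMEM47 and CLU were also lower in the CMT-W lines, by -5.35, -2.26 and -3.44.

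LOC403585, the canine serum amyloid A gene of the acute phase, had log2 ratios of -3.98 and -3.31 with CMT-W and of 3.28, 1.60 and 0.00 with the others (difference -5.27 ± 0.88). The metallothionein MT2A, which binds zinc and copper, had -5.82 and -3.58 against -0.10, -0.50 and 1.16, and MT1E, of the same family, had -4.27 and -3.91 against -0.31, -0.82 and 0.83. SLC2A9, a urate transporter, had -5.84 and -4.76 against -1.41, -1.82 and 0.33. All these genes passed the threshold. For LOC403585, MT2A and SLC2A9 the mono-cultured CMT-W cancer cells were lower by -3.82, -3.0 and -3.32. Other called lower genes of redox and sulphur metabolism were GPX1, TXNRD3 and SULT1A1, with differences of -3.32, -3.04 and -3.19.

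KITLG and EDN1 differed because they were raised with the other lines. KITLG, the stem cell factor, had log2 ratios of -0.82 and 0.24 with CMT-W against 4.33, 5.79 and 4.81. In the co-culture channel it was well above background on 0 of 4 CMT-W arrays and on 6 of 6 others, where its level was at least 12.7-fold higher (adjusted p = 0.0174 for the ratio). Such a bound sets the mean of the brighter group against the higher of the dim probe's own signal and the lowest signal of any probe that passed the background mark. EDN1, endothelin 1, had 2.19 and 0.58 against 6.90, 4.96 and 5.19, with its mono-culture channel well above background on 1 of 10 arrays, so that the size of these ratios is uncertain. Both genes passed the filter on dim probes through the other co-cultures alone. BMPR1A, FGFR2 and GJC1, a receptor of bone morphogenetic proteins, a receptor of fibroblast growth factors and a connexin, were also called lower, with mean ratios of 0.39, 0.02 and 0.75 with CMT-W and of 4.09, 2.25 and 3.51 with the others. PDPN, podoplanin, was lowered with all 5 lines and more with CMT-W (-5.72 and -5.18 against -2.84, -1.07 and -0.78), and RBM47 had a difference of -2.55.

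**Figure D4:**
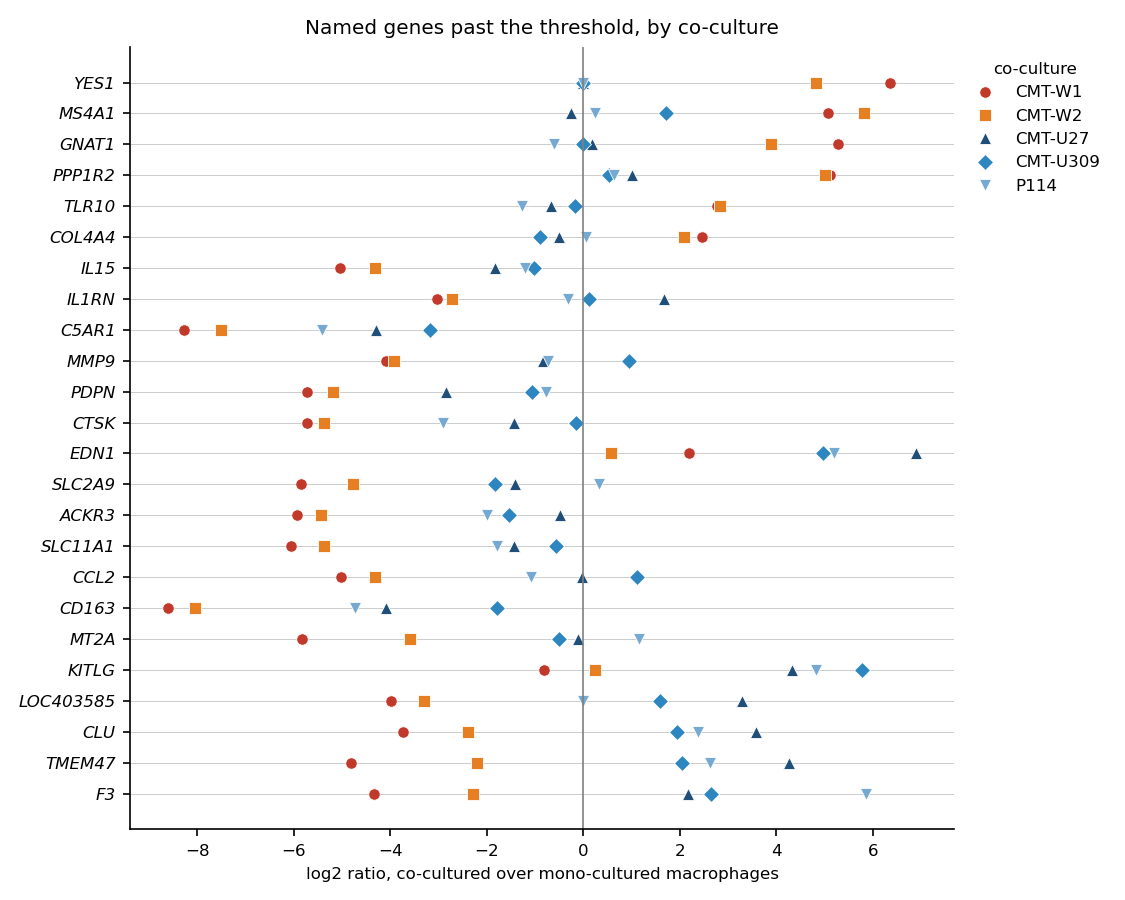
Log2 ratio of co-cultured over mono-cultured macrophages (horizontal axis) of 24 named genes past the threshold (vertical axis), 1 point per co-culture, with CMT-W1 and CMT-W2 in red and orange and the other lines in blue. The points of the CMT-W lines lie apart from the others for every gene, above them for the 6 uppermost genes and below them for the other 18.

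Of the 6 genes called higher, 4 were well above background in mono-cultured CMT-W cancer cells and 2 were not. YES1, a kinase of the SRC family, had log2 ratios of 6.35 and 4.82 with CMT-W1 and CMT-W2 and of 0.00 with each of the other lines, where both channels were not well above background. GNAT1, the transducin of rod photoreceptors, had 5.28 and 3.89 against 0.17, 0.00 and -0.61. In the co-culture channel YES1 was at least 20.6-fold and GNAT1 at least 12.4-fold higher with CMT-W (adjusted p = 0.0144 and 0.0174 for the ratios). YES1, GNAT1 and PPP1R2 passed the filter on dim probes through the CMT-W co-cultures alone, so that their p-values were fixed in part by that choice. PPP1R2, an inhibitor of protein phosphatase 1, had 5.12 and 5.00 against 1.02, 0.53 and 0.65, and COL4A4, a basement membrane collagen, had 2.47 and 2.09 against -0.49, -0.90 and 0.06.

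These are the genes that were high in mono-cultured CMT-W cancer cells. YES1, GNAT1, PPP1R2 and COL4A4 were well above background on 4 of 4 arrays of mono-cultured CMT-W cancer cells, with levels higher than in the other lines by 6.50, 4.94, 7.37 and 3.70. The mono-culture channel of the macrophage arrays also held more PPP1R2 with CMT-W1 and CMT-W2, at log2 levels of 7.02 and 5.27 against 3.81, 3.82 and 4.83, and more COL4A4, at 7.44 and 6.01 against 5.48, 5.61 and 5.14. For neither gene did this difference pass the threshold (adjusted p = 0.813 for each from limma). Their part in the ratios was not tested.

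MS4A1 and TLR10 were higher with CMT-W and were not well above background in those cancer lines alone. MS4A1 encodes CD20, the surface protein of B cells. Its log2 ratio was 5.07 with CMT-W1 and 5.83 with CMT-W2, against -0.25 with CMT-U27, 1.72 with CMT-U309 and 0.24 with P114. The difference was 4.88 ± 0.65 (SE, adjusted p = 0.0222 from limma), and the values of both CMT-W lines lay above all others. TLR10, a Toll-like receptor found mainly in B cells, had 2.77 and 2.83 against -0.67, -0.18 and -1.27 (difference 3.51 ± 0.48, adjusted p = 0.0225). Both genes passed the background mark on 0 of 4 arrays of mono-cultured CMT-W cancer cells. In the other lines alone MS4A1 passed it on 1 of 6 arrays and TLR10 on 4 of 6. MS4A1 was above background in the mono-culture channel on 2 of 4 CMT-W arrays. TLR10 was so in the co-culture channel on 4 of 6 other arrays. The size of these ratios is thus uncertain, and with normexp and loess the differences were 2.58 for MS4A1 and 1.16 for TLR10.

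Among 9 lymphocyte markers tested, MS4A1 was the called member and the list's median difference was 0.00. Over all genes tested 1.07% were called higher. The T-cell genes CD4, CD28, CD8A, CTLA4 and ICOS had differences of -0.82, 0.00, 0.24, 1.67 and 1.97 and did not pass. EEF1A1, OOEP, MTPN and GNGT1 lay higher without overlap, as did 24.7% of all genes tested. They missed the threshold, with adjusted p from 0.0512 to 0.0546 from limma. GNGT1 passed the filter on dim probes through the CMT-W co-cultures alone, so that its p is no independent evidence. The other probes of EEF1A1 gave -0.43 to 1.21, against 2.10 on its brightest probe.

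The Toll-like receptors went both ways. Of 7 tested, TLR10 was called higher, as were 1.07% of all genes tested, and 6 did not pass. The median difference of the 7 was 1.80. TLR1, TLR7 and TLR9 had mean ratios of 0.23, -0.51 and 0.08 with CMT-W and of -2.46, -2.65 and -1.72 with the others. They lay higher with CMT-W without overlap, as did 24.7% of all genes tested. TLR2 and TLR4, the receptors of bacterial lipoproteins and of lipopolysaccharide, had differences of -1.62 and -1.77. Genes of T-cell costimulation and antigen presentation had a median difference of 1.06 over 16 tested genes, and 0 were called. The class II genes DLA-DRA, DLA-DQA1, DLA-DQB1, DLA-DMA and DLA-DOB had differences of 2.39, 1.41, 2.07, 1.20 and 2.38, and of these DLA-DOB did not overlap. DLA-DRA had log2 ratios of 1.55 and 3.57 with CMT-W against 2.47, 0.28 and -2.26, so that the value with CMT-U27 lay between those of CMT-W1 and CMT-W2.

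In the remaining lists few or no members were called, against 2.74% of all genes tested. All 4 ribosomal protein genes tested were higher without overlap with CMT-W (24.7% of all genes were), with differences of 0.96 to 1.63, and 0 passed. Of 6 genes of the prostaglandin and lipid mediator list 0 were called. PTGS2, the inducible cyclooxygenase, had log2 ratios of -5.35 with CMT-W1 and -1.46 with CMT-W2 against -0.53, 1.28 and 2.93 (difference -4.63, adjusted p = 0.0998 from limma). The hypoxia-induced and glycolysis genes (6 tested) and the interferon-stimulated genes (6 tested) had median differences of -0.28 and -0.68, with 0 called in each. VEGFA had ratios of -1.14 and -0.42 against -0.34, -0.08 and -0.04, and SLC2A1, the glucose transporter, overlapped between the groups.

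Collagens and matrix genes (10 tested) had COL4A4 as the called member, and adhesion molecules (6 tested) PDPN. The list of Wnt receptors, growth factors and caveolins (10 tested) had FGFR2 called lower and a median difference of -1.94. CAV2, a caveolin, had log2 ratios of 0.47 and 2.70 with CMT-W against 4.76, 5.02 and 7.0, and did not pass (difference -4.01, adjusted p = 0.0561), while its other probes gave -5.27 to 0.67. CAV1 had mean ratios of 6.07 and 5.67, a difference of 0.39. Epithelial markers (10 tested), mesenchymal markers (7 tested), granulocyte markers (4 tested) and cell cycle genes (7 tested) had median differences of -1.39, -0.43, -0.05 and 1.09, with 0 called in each. For 0 of the 10 epithelial markers did the groups separate, and 8 had a lower and 2 a higher mean ratio with CMT-W. DSG3 had log2 ratios of 0.00 with both CMT-W lines against 9.17, 0.00 and 5.93 with CMT-U27, CMT-U309 and P114. OCLN had 2.12 and -0.11 against 4.29, 0.31 and 5.94. Both genes passed the filter on dim probes through the other co-cultures alone, so that the size of these ratios is uncertain. S100A8, a calcium-binding protein of granulocytes and monocytes, had log2 ratios of -6.58 and -6.67 against -4.86, -1.98 and -2.80 (adjusted p = 0.0682). Of 8 phagocyte oxidase and iron genes SLC11A1 was the called member, and CYBB, the catalytic subunit of the phagocyte oxidase, had a difference of 2.61 in the opposite direction (adjusted p = 0.138).

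The study's own list of macrophage genes was chosen on these arrays for changes common to the lines and is not independent. Of its 44 genes tested, YES1 was called higher and 7 were called lower, which were CCL2, SLC11A1, ACKR3, CTSK, PDPN, MMP9 and C5AR1. Over all genes tested 1.07% were called higher and 1.67% lower. For 36 of the 44 the difference did not pass, among them MYC, with mean ratios of 4.83 with CMT-W and 4.42 with the others, ABCC5 with 5.66 and 5.85, and MYH7 with -4.68 and -4.74.

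**Figure D5:**
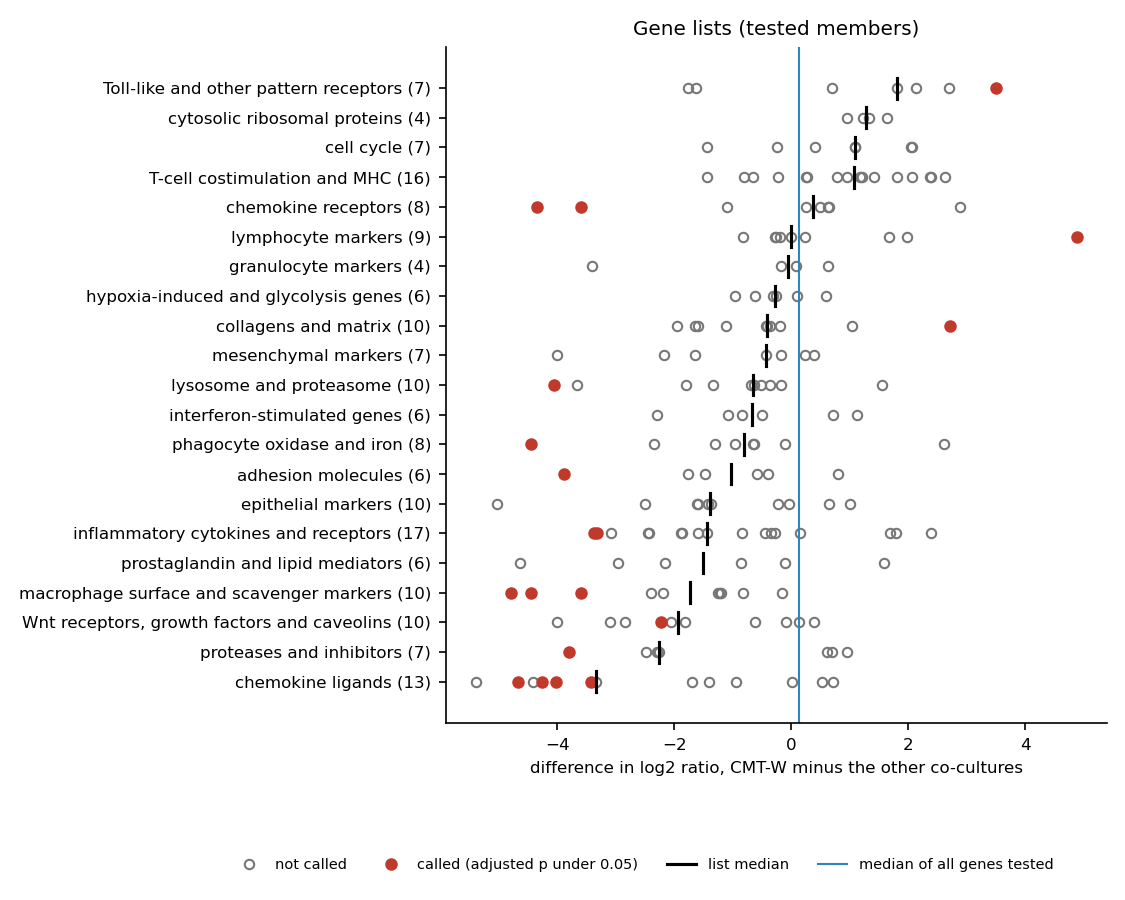
Difference in log2 ratio, CMT-W co-cultures minus the others (horizontal axis), of the tested members of 21 gene lists (vertical axis, number tested in brackets), with called members filled, list medians as black bars and the median of all genes tested (0.13) as a blue line. The chemokine ligands have the lowest median (-3.34) and the Toll-like receptors the highest (1.80).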

How the data were processed

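Macrophages and cancer cells sorted after co-culture were hybridised with mono-cultured cells on two-colour Agilent canine arrays. The authors deposited the scanner output of Agilent Feature Extraction 10.7.3.1. Its intensity columns hold spot signals, and its deposited log10 ratio sets red (Cy5) against green (Cy3), with the background corrected and the dyes normalized. Deposited marks of 0 or 1 flag spots well above background, saturated or outlying. A deposited table of log10 values equals the ratio turned to co-culture over mono-culture.

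The members, gene lists and tests were chosen with earlier results of these data known. Ratios were put on the log2 scale and averaged per dye-swap pair; outlier spots were left out, so 3 to 12 genes lack a value in CMT-U27, CMT-U309 or P114. A gene was its brightest probe, tested where well above background (either channel, both arrays) in at least 2 of 5 co-cultures. Symbols came from RefSeq genes of UU_Cfam_GSD_1.0 and named 1648 of 43603 probes. limma 3.58.1 (R 4.3.3) fitted 2 against 3 values, with Benjamini-Hochberg adjustment over 26966 genes. Channel levels were processed signals after Aquantile normalization. The named genes are the 12 largest differences in each direction past the threshold without overlap, filled by adjusted p, CCL2, CD163 and the 2 largest of each list, and other called or list members were named after their values were seen. A gene that the rule names is not reported here. The fit was tested on simulated data. An exact permutation test of 2 against 3 values cannot go below 0.1. Alternatives were other background correction, filters, dye orientations, probes, blocks, variance models, thresholds, the methods' t-test, and leaving out each co-culture. Python 3.11.15 with pandas 2.3.3, numpy 2.4.6 and matplotlib 3.10.9 read the files and drew the figures. No sequence or coordinate is given, since the files used here hold none of the build.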

Additional observations from a re-analysis of the deposited data

Results flagged for a closer look

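The response differed between the groups for 738 genes by the test of the difference itself. Among them are 24 genes chosen by the naming rule given above (limma, adjusted p from 0.0144 to 0.041 over all genes tested). Other called genes with a symbol, such as CCL3, CCL4 and CCL8, were named after their values were seen and are not listed here. The differences, CMT-W minus the other co-cultures on the log2 scale, were -6.86 for F3, -6.49 for TMEM47, -5.70 for CLU, -5.27 for LOC403585, -5.26 for KITLG, -4.89 for MT2A, -4.79 for CD163, -4.67 for CCL2, -4.45 for SLC11A1, -4.34 for ACKR3, -4.34 for SLC2A9, -4.30 for EDN1, -4.06 for CTSK, -3.89 for PDPN, -3.80 for MMP9, -3.59 for C5AR1, -3.36 for IL1RN and -3.33 for IL15. They were 5.58 for YES1, 4.88 for MS4A1, 4.73 for GNAT1, 4.33 for PPP1R2, 3.51 for TLR10 and 2.72 for COL4A4. Each was seen in 2 of 2 CMT-W co-cultures against 3 of 3 others, as was every one of the 738 genes. Genes were named in part for values without overlap, so that this count is no separate evidence. YES1, GNAT1, PPP1R2, KITLG and EDN1 passed the filter on dim probes through their brighter group alone. Their p-values are therefore no independent evidence. No sample was tested for standing apart within its group, since the groups hold 2 and 3 values.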

How the results depend on the processing

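The 24 genes past the threshold that the naming rule chose kept their direction under each of the alternatives that gave them a value. Other called genes named in the text, among them CCL3, CCL4 and CCL8, were not followed under the alternatives. The 738 calls were not kept. The count was 0 with normexp and loess, 0 with normexp and median centring, 0 without a filter on dim probes, 0 with the methods' t-test (866 genes at an unadjusted p under 0.01) and 0 at an adjusted p under 0.01, so that none of the 24 passed there. With normexp the sizes of many differences fell. With loess 12 of the 24 were smaller by over 1.5 times, at 1.52 for YES1, 1.22 for GNAT1, -1.48 for KITLG, -1.11 for IL15, 1.16 for TLR10, 0.89 for COL4A4, -1.61 for C5AR1, -2.06 for EDN1, -2.10 for IL1RN, 2.58 for MS4A1, 2.42 for PPP1R2 and -3.29 for TMEM47, and with median centring ACKR3 also was (-2.77). COL4A4 alone fell by that much with only the Cy5 arrays. The count was 487 with only the arrays that had the co-culture in Cy5, 321 with only those in Cy3, 1358 with the slide as a random block and 1985 at an adjusted p under 0.10. With the slide as a fixed block it was 960, of which 567 were among the 738. With each co-culture left out in turn it ran from 0 (without CMT-W1 or CMT-W2) to 1787 (without CMT-U309). Where a CMT-W line was left out, the other was assumed to vary like the rest. The table of values per array gave the same 738.

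For the co-culture channel 2.43% of genes were called, and with each co-culture left out 0% (without CMT-W1 or CMT-W2) to 7.44% (without CMT-U309), with 3.70% without CMT-U27. For the mono-culture channel this ran from 0% to 0.423% (without CMT-W2). The responses within the groups ran from 1478 (without CMT-W1) to 8322 for CMT-W and from 8742 to 12197 for the others, and were 2110 and 5103 with median centring. CXCR2, which did not pass, had a difference of 0.62, from -0.22 (without CMT-W1) to 1.47 (without CMT-W2). The cause of these changes was not tested.

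The replicate numbers of the labels mark the arrays of a dye-swap pair and do not pair co-cultures. Deviations of arrays with the same number had a correlation of -0.15 to 0.23. With 10 arrays, the replicate block and the dye-swap pair as a random block, 1855 genes were called, 618 of them among the 738.

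Signal limits dim probes. Ratios of genes that missed the background mark in a channel, on some or all arrays, have no secure size. Such genes include YES1, GNAT1, PPP1R2, KITLG, EDN1, TMEM47, IL15, MS4A1 and TLR10.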
